A study of Mus musculus with 12 samples.

Results

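Plasma carriers of hormones and retinol are among the proteins that the liver secretes, and 4 of their genes are described here in hepatoblasts, in hepatocytes differentiated from them in culture and in hepatocytes of adult liver. The genes were Shbg (ENSMUSG00000005202), which encodes sex hormone-binding globulin, Serpina7 (ENSMUSG00000031271), which encodes thyroxine-binding globulin, Ttr (ENSMUSG00000061808), which encodes transthyretin, and Rbp4 (ENSMUSG00000024990), which encodes plasma retinol-binding protein. These 4 of the 53715 listed genes were picked by name, as carriers of steroid hormones, thyroid hormones and retinol, and with their differences between the same 3 groups already known. Their differences between the groups are therefore given as a description, with no test. All 4 passed the filter on low counts and were among the 17779 genes tested.

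Most steroid and thyroid hormone in blood travels bound to protein, and the bound fraction serves as a reservoir from which free hormone is released. Sex hormone-binding globulin binds androgens and estrogens, thyroxine-binding globulin is a serpin without inhibitory activity that binds thyroxine with high affinity, and transthyretin binds thyroxine more weakly but is more abundant in rodent plasma. Retinol leaves the hepatocyte bound to retinol-binding protein, which circulates in a complex with transthyretin that is too large to be lost through the kidney filter. In rodents the liver makes sex hormone-binding globulin mainly before birth.

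RNA was sequenced from 12 libraries of C57BL/6JOlaHsd mice, 4 biological replicates in each of 3 groups. Hepatoblasts were Dlk1+ cells enriched by magnetic separation from livers of E14.5 embryos, with many embryos pooled in an isolation, and lysed without culture. Diff. hepatocytes were cells of the same kind kept for 4 days on fibronectin in medium that contained Matrigel and fetal bovine serum. The medium also held an insulin, transferrin and selenium supplement and dexamethasone, a synthetic glucocorticoid. Mature hepatocytes were isolated by collagenase perfusion from male mice of 8 to 12 weeks and lysed at once. The sex of the pooled embryos is not given in the sources used here, so the adult samples differed from the embryonic ones in age, in isolation and possibly in sex, which cannot be told apart, and Diff. hepatocytes differed from both in culture. In such bulk samples fewer cells of a type and less RNA per cell cannot be told apart either.

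Counts on genes ranged from 21523329 to 25216977 in hepatoblasts, from 19581551 to 22026087 in Diff. hepatocytes and from 20043218 to 23791477 in mature hepatocytes. Levels are given as CPM, counts per 1000000 counts of a library, after scaling of the libraries by the trimmed mean of M values (TMM), or as CPM per kilobase of exon (RPKM) where genes are compared with each other, and errors are SDs with n = 4. The hepatoblast markers Dlk1, Afp, Gpc3 and Igf2 summed to 31386 to 52888 CPM in hepatoblasts, 16618 to 21053 in Diff. hepatocytes and 37.1 to 67.8 CPM in the mature cells. The sum of 6 adult hepatocyte markers (Cyp2e1, Cyp7a1, G6pc, Tat, Cps1 and Cyp3a11) ran the other way, with 27.7 to 46.4, 6338 to 7558 and 18201 to 24516 CPM. By the call rule given below, Cyp2e1 was the only one of them not called higher in Diff. hepatocytes than in hepatoblasts. Cps1 was the only one not called lower in Diff. than in mature hepatocytes. Hepatoblast replicate 1 stood apart, with 2307 CPM over 6 erythroid markers where the group's median was 419.6 CPM, and with the highest sums of 6 macrophage markers (257 CPM) and 6 endothelial markers (126 CPM) of its group. Diff. hepatocyte replicate 1 had the highest sums of its group for 5 bile duct markers (213 CPM, group median 86.0 CPM) and 7 stellate and mesenchymal markers (1328 CPM, group median 771.7 CPM). Values without these libraries are given where they matter. The endothelial markers summed to 32.2 to 126 CPM in hepatoblasts, 4.75 to 9.85 in Diff. hepatocytes and 99.5 to 191 in mature hepatocytes. For the macrophage markers the sums were 64.6 to 257, 14.1 to 76.4 and 97.2 to 195 CPM. Against hepatoblasts, mature hepatocytes were called higher for Kdr, Stab2, Tek and Clec4f and lower for Marco. The part of such cells in the values below was not tested.

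Shbg, Serpina7 and Rbp4 lie on different chromosomes, and the stretches before their RefSeq start sites are shown because the 3 genes followed different courses between the same groups. Positions are in the GRCm38 build. Shbg spans chr11:69614804-69617905 on the minus strand, Serpina7 chrX:139079257-139085236 on the minus strand and Rbp4 chr19:38116629-38125281 on the minus strand, with 8, 6 and 7 exon blocks in GENCODE release M21. The sequences are RefSeq promoter sequences of the GRCm38.p6 assembly, written 5′ to 3′ on the gene's strand and ending at the last base before the start site or before the first exon of another transcript. Stretches within exons of the same gene are left out. Capitals mark the letters of 6 motifs that were searched on both strands.
Shbg, chr11:69617906-69618155: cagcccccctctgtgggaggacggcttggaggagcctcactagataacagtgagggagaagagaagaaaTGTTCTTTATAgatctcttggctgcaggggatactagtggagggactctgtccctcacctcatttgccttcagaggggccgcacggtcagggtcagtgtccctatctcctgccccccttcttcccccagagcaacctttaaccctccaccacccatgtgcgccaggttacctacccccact
Serpina7, chrX:139085237-139085486: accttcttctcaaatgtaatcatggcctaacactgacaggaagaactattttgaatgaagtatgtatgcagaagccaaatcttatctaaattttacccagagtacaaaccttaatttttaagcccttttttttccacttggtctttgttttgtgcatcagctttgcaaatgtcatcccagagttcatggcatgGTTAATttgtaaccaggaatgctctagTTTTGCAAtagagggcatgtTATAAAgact
Rbp4, start at 38124811, chr19:38124829-38124954: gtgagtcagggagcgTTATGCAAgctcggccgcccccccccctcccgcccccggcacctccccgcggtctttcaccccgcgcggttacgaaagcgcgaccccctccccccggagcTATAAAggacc
Rbp4, start at 38125321, chr19:38125322-38125571: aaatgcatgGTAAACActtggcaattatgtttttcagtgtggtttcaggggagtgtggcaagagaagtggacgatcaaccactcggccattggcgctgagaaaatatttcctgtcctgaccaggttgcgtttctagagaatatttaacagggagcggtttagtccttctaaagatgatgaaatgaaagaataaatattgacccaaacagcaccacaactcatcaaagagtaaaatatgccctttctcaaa

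The Shbg stretch held the steroid receptor half-site TGTTCT at 181 to 176 bases before the start, sharing 1 letter with a TATA box in reverse (TTTATA) at 176 to 171 bases, far from the usual place of a TATA box. The Serpina7 stretch held TATAAA, a C/EBP motif (TTGCNNAA, here read as TTTTGCAA) and the HNF1 half-site GTTAAT, at 27 to 22, 47 to 40 and 74 to 69 bases before the start at 139085219, the second of its 2 RefSeq starts. The stretch before the inner Rbp4 start held TATAAA at 28 to 23 bases and the C/EBP motif as TTATGCAA at 128 to 121 bases, and the stretch before the outer start held a FOXA motif (TGTTTAC or TGTTTGC, here in reverse as GTAAACA) at 241 to 235 bases. The HNF4 motif, searched as AAAGTCC or AAGGTCA, was in none of these windows. Of 32851 promoter windows of 250 bases, 12.4% held the TATA box, 16.1% the steroid receptor half-site, 9.6% the C/EBP motif, 6.4% the HNF1 half-site, 7.3% the FOXA motif and 7.5% the HNF4 motif. A match describes letters in a window and does not show a bound site.

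Shbg was a gene of the hepatoblast libraries. Its level in hepatoblasts was 57.2, 94.6, 98.9 and 92.8 CPM in the order of replicates 1 to 4, from 1774, 3172, 3055 and 2802 counts. In Diff. hepatocytes the 4 libraries held 1, 6, 0 and 2 counts, and in mature hepatocytes 1, 1, 1 and 3 counts, against a floor of 3 counts that a library at 0 allows. Every hepatoblast library thus stood above all 8 others, and hepatoblast replicate 1, the library with the most erythroid RNA, was the lowest of the 4. Group means were 85.9 ± 19.3 in hepatoblasts, 0.10 ± 0.11 in Diff. hepatocytes and 0.0943 ± 0.0614 CPM in the mature cells.

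Summed over the libraries, 10803 counts of Shbg in hepatoblasts stood against 9 in Diff. hepatocytes, a ratio of 852 after scaling with a 95% counting interval of 449 to 1864. Against the 6 counts of mature hepatocytes the ratio was 909, with an interval of 418 to 2478. The intervals cover counting error only, and the values of both low groups lie so near the floor that they were not distinguishable from each other at this depth. After 4 days of culture from the same kind of cell, Shbg transcript, summed over the libraries, stood at 0.117% of its hepatoblast level. In adult hepatocytes it stood at 0.11%. No other gene overlaps Shbg in GENCODE release M21. None of its 1503 stretches of 75 bases, the read length, occurs in a transcript of another gene there. The same held for the other 3 carriers.

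Serpina7 was lowest in hepatoblasts and highest in culture. Its levels were 5.90, 5.97, 9.06 and 9.08 CPM in the hepatoblast libraries, 77.2, 54.1, 54.2 and 87.0 in Diff. hepatocytes and 18.6, 12.3, 17.1 and 43.4 in mature hepatocytes. The 3 groups did not overlap, though mature replicate 4 stood more than 20 CPM above the next mature library and came closest to the cultured cells. The group means were 7.50 ± 1.81, 68.1 ± 16.6 and 22.9 ± 14.0 CPM. On the log2 scale the fitted difference of Diff. hepatocytes to hepatoblasts was 3.18 (SE 0.35), that of mature hepatocytes to hepatoblasts was 1.61 (SE 0.34), and that of Diff. to mature hepatocytes was 1.57 (SE 0.33). Without mature replicate 4 the last 2 became 1.09 and 2.08.

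**Figure D1:**
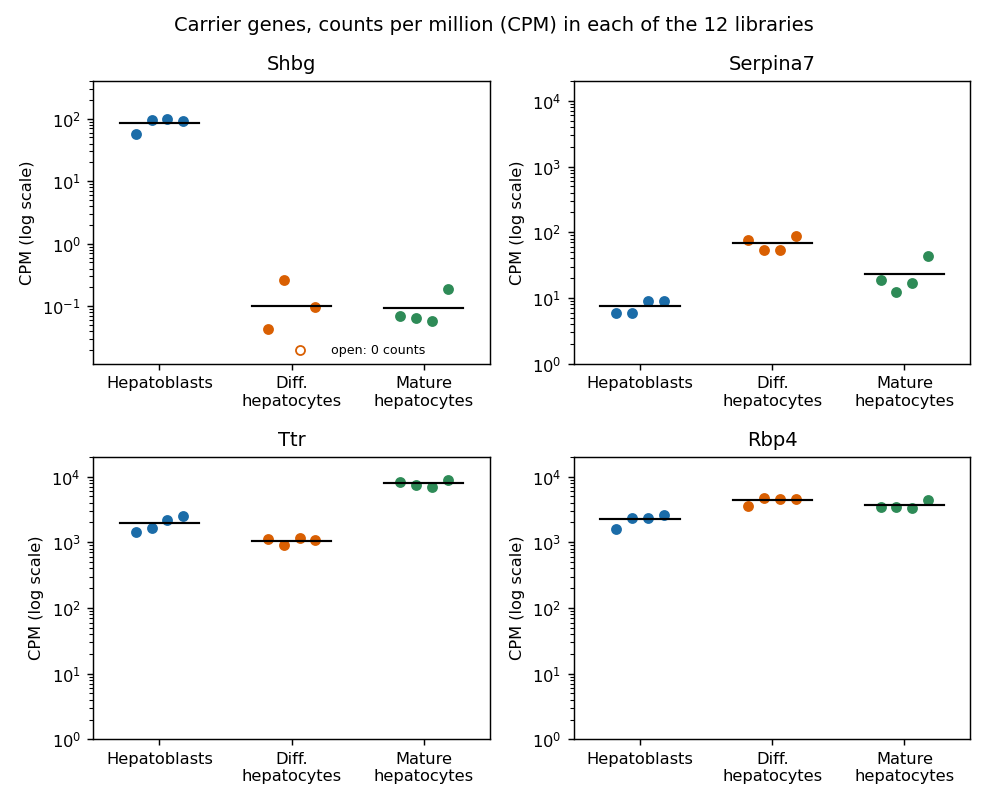
Level of each carrier gene in CPM on a log axis, with a point for each of the 12 libraries, replicates 1 to 4 from left to right within a group, and a line at the group mean. Shbg is at 57.2 CPM or more in hepatoblasts and at 0.258 CPM or less in the other 8 libraries (the open point marks 0 counts, drawn at the lower edge), Serpina7 is highest in Diff. hepatocytes, Ttr in mature hepatocytes, and Rbp4 varies least.

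Ttr spans 18:20665280-20674321 on the plus strand of GRCm38, with 4 exon blocks. Its levels were 1447, 1661, 2201 and 2505 CPM in the hepatoblast libraries, 1120, 904, 1142 and 1068 in Diff. hepatocytes and 8366, 7439, 7017 and 8749 in mature hepatocytes. The order was mature hepatocytes, then hepatoblasts, then Diff. hepatocytes, with no overlap between groups. The means were 7893 ± 802, 1954 ± 486 and 1058 ± 107 CPM. Ttr of Diff. hepatocytes thus lay below the level of the cells they came from, with a log2 difference of -0.88 (SE 0.17), while that of mature hepatocytes lay above it, with 2.01 (SE 0.17). The difference of Diff. to mature hepatocytes was -2.90 (SE 0.18).

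Rbp4 varied least of the 4. Its levels were 1612, 2346, 2351 and 2581 CPM in the hepatoblast libraries, 3559, 4640, 4540 and 4573 in Diff. hepatocytes and 3431, 3470, 3345 and 4376 in mature hepatocytes. The hepatoblast libraries lay below all others, and Diff. and mature hepatocytes overlapped, since Diff. replicate 1 lay below mature replicate 4. Means were 2222 ± 421, 4328 ± 514 and 3655 ± 483 CPM. The log2 differences were 0.96 (SE 0.16) for Diff. hepatocytes against hepatoblasts, 0.72 (SE 0.16) for mature hepatocytes against hepatoblasts and 0.24 (SE 0.16) for Diff. against mature hepatocytes. In 2 of the groups replicate 1 was the lowest library for Rbp4, and in hepatoblasts it was also the lowest for Shbg, Serpina7 and Ttr. Without hepatoblast replicate 1 the log2 differences to Diff. hepatocytes became 3.09 for Serpina7, -0.99 for Ttr and 0.84 for Rbp4, so these 3 kept their sign. The part of the blood cell RNA of that library in these values was not tested.

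The call rule used across all genes asks for an adjusted p under 0.01 (edgeR's quasi-likelihood test, adjusted by Benjamini and Hochberg over all genes) and an absolute log2 fold change over 1. By that rule 1 member (Serpina7) was called higher and 1 (Shbg) lower in Diff. hepatocytes than in hepatoblasts, where 14.9% of all tested genes were called higher and 14.0% lower. In mature hepatocytes against hepatoblasts 2 (Serpina7 and Ttr) were called higher and 1 (Shbg) lower, with 20.1% and 24.7% of all genes. In Diff. against mature hepatocytes 1 (Serpina7) was called higher and 1 (Ttr) lower, with 20.2% and 15.6% of all genes. Groups did not overlap for 4, 4 and 2 members in the 3 comparisons, where 57.5%, 66.0% and 61.6% of all genes did not overlap. Nothing is read from these counts, since the members were picked on the same differences and the comparisons share their libraries. Rbp4 in Diff. hepatocytes against hepatoblasts lay just under the fold limit and was called without hepatoblast replicate 4 (1.04) or without Diff. replicate 1 (1.05).

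The choice of scaling moved all these values, because TMM factors ran from 1.23 to 1.44 in hepatoblasts and from 0.677 to 0.778 in mature hepatocytes. With library totals in place of TMM the median log2 fold change of all tested genes moved from -0.013 to -0.335 in Diff. hepatocytes against hepatoblasts, from -0.150 to -1.0 in mature hepatocytes against hepatoblasts, and from 0.092 to 0.618 in Diff. against mature hepatocytes. The genes called higher and lower changed with it, from 2648 and 2497 to 1985 and 3621, from 3580 and 4391 to 2008 and 7915, and from 3586 and 2776 to 5499 and 1776. In mature hepatocytes against hepatoblasts, Rbp4 turned to -0.13, Serpina7 stood at 0.74 and was no longer called, and Ttr stood at 1.17. In Diff. hepatocytes against hepatoblasts, Ttr stood at -1.19 and was then called. A change of scaling shifts all genes of a comparison by nearly the same amount, so the distance of a member to the median gene can hardly change. That distance is given as a position and is no check of the calls. In mature hepatocytes against hepatoblasts, Rbp4 lay 0.87 above the median under either scaling, Ttr 2.17 and Serpina7 1.76 with TMM and 1.74 with totals, on the log2 scale.

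**Figure D2:**
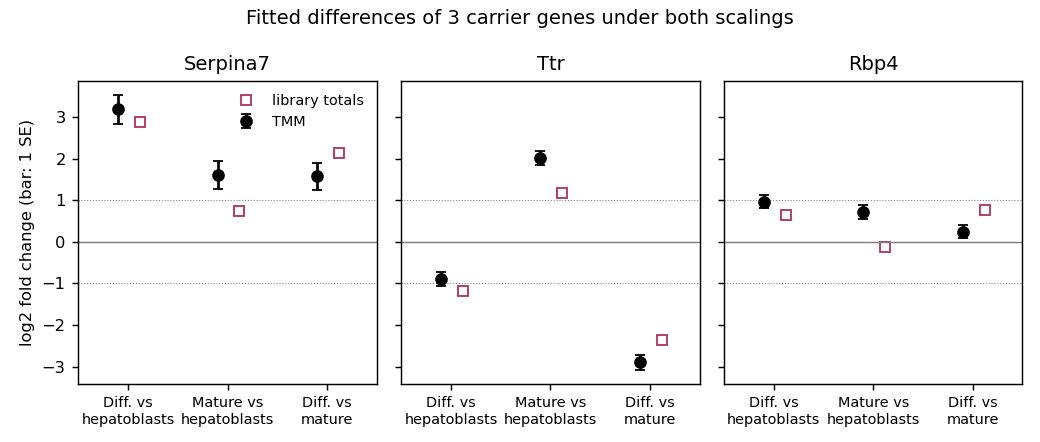
Log2 fold change of Serpina7, Ttr and Rbp4 in the 3 comparisons, from the edgeR fit with TMM scaling (filled points, bars of 1 SE) and with library totals (open squares, no bars), with dotted lines at the call limit of 1 in each direction. Rbp4 in mature hepatocytes against hepatoblasts stands at 0.72 with TMM and at -0.13 with totals, and Ttr in Diff. against mature hepatocytes is below -2 under both.

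Levels of different genes can be compared per exon length. In RPKM, Rbp4 (1655 ± 314) and Ttr (1647 ± 410) were alike in hepatoblasts, and they ranked 16 and 17 among all tested genes. In Diff. hepatocytes Rbp4 stood at 3223 ± 383 RPKM, again in rank 16, and Ttr at 892 ± 90.6 RPKM in rank 43. In mature hepatocytes Ttr led with 6655 ± 677 RPKM in rank 15, and Rbp4 had 2722 ± 360 RPKM in rank 28. Shbg, at 57 ± 12.8 RPKM, ranked 539 in hepatoblasts, and Serpina7 ranked 7328 in hepatoblasts (3.06 ± 0.74 RPKM), 1233 in Diff. hepatocytes (27.8 ± 6.79 RPKM) and 3929 in mature hepatocytes (9.34 ± 5.71 RPKM). Of the 2 thyroxine carriers, Ttr transcript was thus far more abundant than Serpina7 transcript in every group. The 4 genes together held 0.450% to 0.640% of all counts in hepatoblasts, 0.514% to 0.594% in Diff. hepatocytes and 0.783% to 0.892% in mature hepatocytes.

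Because retinol-binding protein circulates in a complex with transthyretin, the ratio of the 2 transcripts was taken within each library, where scaling between libraries plays no part. Per exon base the Rbp4 to Ttr ratio was 0.984, 1.25, 0.943 and 0.910 in hepatoblasts, 2.81, 4.53, 3.51 and 3.78 in Diff. hepatocytes and 0.362, 0.412, 0.421 and 0.442 in mature hepatocytes. The 3 groups were wide apart. The means were 1.02 ± 0.154, 3.66 ± 0.713 and 0.409 ± 0.0337, so that Diff. hepatocytes and mature hepatocytes lay on opposite sides of hepatoblasts. Transcript ratios say nothing of the ratio of the secreted proteins.

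**Figure D3:**
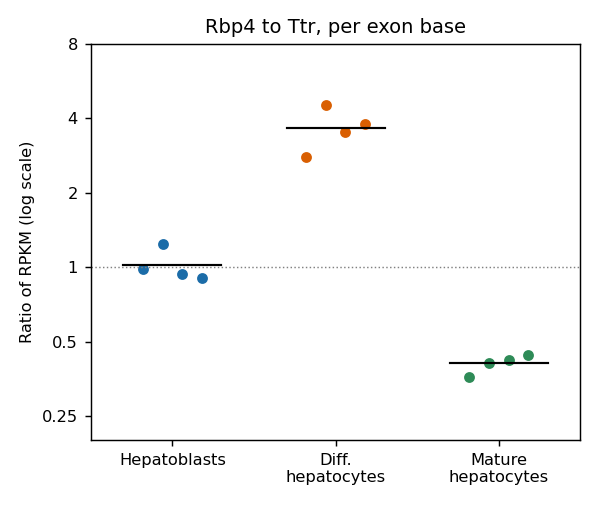
Ratio of Rbp4 to Ttr in RPKM within each library on a log axis, replicates 1 to 4 from left to right, with a line at the group mean and a dotted line at 1. Hepatoblast libraries lie between 0.910 and 1.25, Diff. hepatocytes between 2.81 and 4.53 and mature hepatocytes between 0.362 and 0.442.

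Other carriers of small ligands in plasma show how far the 4 courses were shared. The list held 6 genes, all tested. Like the members, this list and those below were chosen with earlier results of these data known. Their shares and the adjusted p-values of their genes are therefore a description. Of these, 1 was called higher and 3 lower in Diff. hepatocytes than in hepatoblasts, and 3 higher and 3 lower in mature hepatocytes than in hepatoblasts. These are 16.7% and 50.0% of the list in Diff. hepatocytes, against 14.9% and 14.0% of all tested genes. In mature hepatocytes they are 50.0% in each direction, against 20.1% and 24.7%. The list's median log2 fold change was -0.49 and 0.03, against -0.01 and -0.15 over all tested genes.

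Serpina6, which encodes corticosteroid-binding globulin and belongs to the serpin family with Serpina7, had one of the widest ranges of the list. Its levels were 3151, 4402, 5103 and 5079 CPM in the hepatoblast libraries, 7.30, 5.25, 8.48 and 8.33 in Diff. hepatocytes and 150, 225, 154 and 431 in mature hepatocytes. It fell by 9.24 (SE 0.43) on the log2 scale in Diff. hepatocytes against hepatoblasts (edgeR adjusted p = 2.29e-09) and by 4.21 (SE 0.34) in mature hepatocytes against hepatoblasts (edgeR adjusted p = 1.06e-07). Diff. hepatocytes were also lower than mature hepatocytes, by -5.03 (SE 0.36, edgeR adjusted p = 6.06e-08). The glucocorticoid carrier and the thyroxine carrier of the same family thus stood in opposite order in cultured and adult cells. Both were highest among mature libraries in replicate 4.

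Gc, the vitamin D-binding protein, rose from 520 ± 125 in hepatoblasts to 4045 ± 268 in Diff. hepatocytes and 8468 ± 516 CPM in the mature cells, with log2 fold changes of 2.96 (SE 0.17) and 4.03 (SE 0.18). Alb, which encodes albumin, a carrier of many ligands, was at 37733 ± 8298 in hepatoblasts and 40200 ± 2955 CPM in Diff. hepatocytes, a log2 difference of 0.09 (SE 0.20) that turned to -0.22 with library totals and was not called. In mature hepatocytes it rose to 95132 ± 16526 CPM (log2 1.33, SE 0.20), a call lost with library totals, where it was 0.49. Afp, the fetal carrier of fatty acids and, in rodents, of estrogens, fell from 39313 ± 8260 CPM to 18597 ± 2089 CPM in Diff. hepatocytes (log2 -1.08, SE 0.21) and to 42.3 ± 11.2 CPM in mature hepatocytes (log2 -9.86, SE 0.30). The first of these calls was lost without hepatoblast replicate 4, where the log2 fold change was -0.99. Apom, a carrier of sphingosine 1-phosphate, fell from 677 ± 134 CPM to 286 ± 33.0 and 279 ± 20.1 CPM. Tcn2, which carries vitamin B12, rose to 106 ± 9.79 CPM in mature hepatocytes from 39.0 ± 5.13 CPM in hepatoblasts (log2 1.45, SE 0.10), a call lost with library totals, where it was 0.60.

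**Figure D4:**
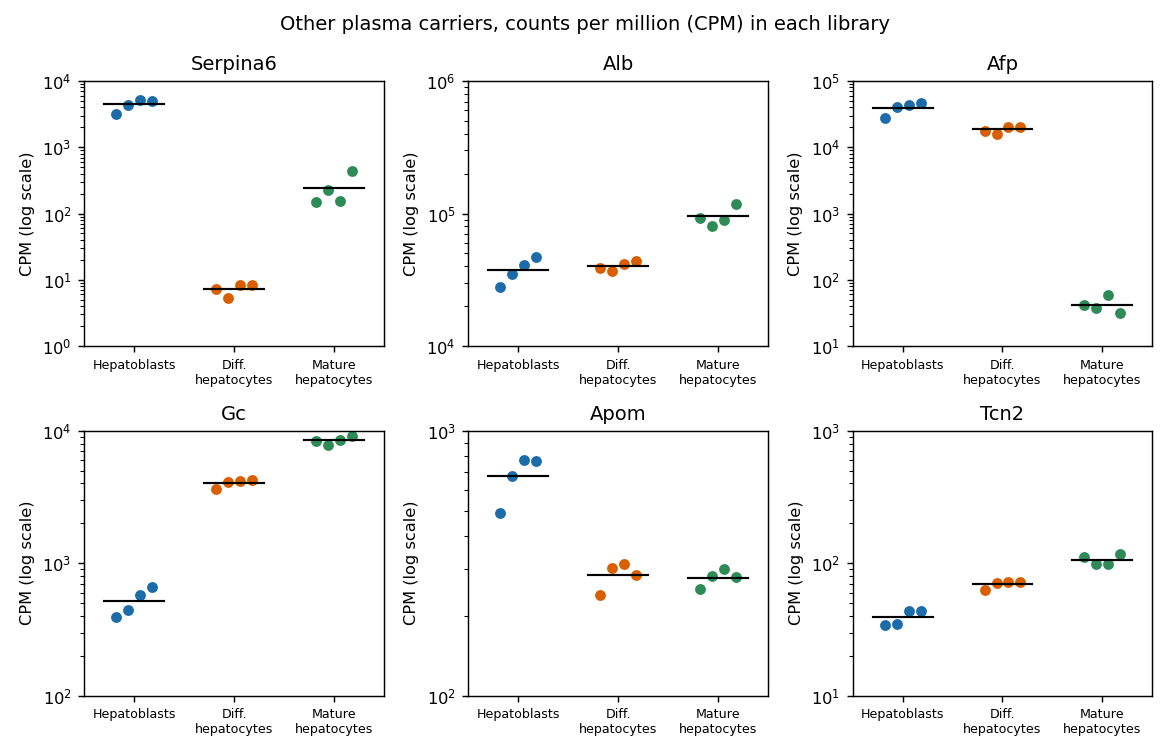
Level of 6 other plasma carrier genes in CPM on log axes that differ between panels, with a point per library, replicates 1 to 4 from left to right, and a line at the group mean. Serpina6 is at 3151 CPM or more in every hepatoblast library, at 8.48 CPM or less in every Diff. hepatocyte library and between 150 and 431 CPM in mature hepatocytes, while Gc steps up from group to group.

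A wider set of 109 genes in 8 lists, of which 102 were tested, held the 6 carriers above, genes that handle or sense the ligands, thyroid hormone response genes and liver transcription factors. In Diff. hepatocytes against hepatoblasts 26 were called higher and 16 lower, with a median log2 fold change of 0.10 against -0.01 over all tested genes. In mature hepatocytes against hepatoblasts 56 were called higher and 17 lower, with a median of 1.52 against -0.15, and in Diff. against mature hepatocytes 15 higher and 54 lower, with a median of -1.15 against 0.09. With library totals these counts were 22 and 22, 44 and 23, and 17 and 43. Without hepatoblast replicate 1 they were 27 and 16, 56 and 17, and 15 and 54. Of all tested genes, 14.9% were called higher and 14.0% lower in Diff. hepatocytes than in hepatoblasts, and 20.1% and 24.7% in mature hepatocytes. In Diff. against mature hepatocytes 20.2% were called higher and 15.6% lower. Counts given for a list are set against these shares as a description, and no list was tested as a set.

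In the uptake, storage and metabolism of retinoids, 29 of 31 listed genes were tested. In Diff. hepatocytes 5 were called higher and 5 lower than in hepatoblasts, and in mature hepatocytes 16 higher and 7 lower, with medians of 0.14 and 1.58 against -0.01 and -0.15 over all tested genes. These are 17.2% of the list in each direction in Diff. hepatocytes, close to the 14.9% and 14.0% of all genes, and 55.2% and 24.1% in mature hepatocytes, against 20.1% and 24.7%. Adh1, an alcohol dehydrogenase that also acts on retinol, was at 8.78 ± 2.13 in hepatoblasts, 68.7 ± 35.4 in Diff. hepatocytes and 2184 ± 496 CPM in the mature cells. Aldh1a1, which makes retinoic acid from retinal, was at 2.03 ± 0.161, 23.3 ± 8.37 and 1546 ± 262 CPM in the same order, and rose by 3.52 (SE 0.24) and 9.57 (SE 0.30) on the log2 scale. The retinol dehydrogenase Rdh7 rose from 4.68 ± 1.58 CPM to 214 ± 40.8 and 1682 ± 258 CPM.

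Some genes of the list were called in mature hepatocytes and not in culture. Cyp26a1, which breaks down retinoic acid, had 34.0 ± 14.9 CPM in mature hepatocytes against 0.143 ± 0.0149 in hepatoblasts and 0.0545 ± 0.065 CPM in Diff. hepatocytes. Rdh16 had 116 ± 42.2 CPM against 0.11 ± 0.0368 and 0.0446 ± 0.0353 CPM. Retsat, which saturates retinol, had 595 ± 193 CPM against 29.4 ± 3.91 and 57.8 ± 13.8 CPM. Stra6l, a receptor for retinol-binding protein in liver, was at 43.2 ± 9.67 in hepatoblasts and 51.6 ± 5.47 in Diff. hepatocytes and rose to 221 ± 68.1 CPM in mature hepatocytes (log2 2.35, SE 0.22, edgeR adjusted p = 3.85e-07). The tests of Diff. against mature hepatocytes called each of these 4 genes lower in Diff. hepatocytes.

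Rbp2, an intracellular retinol-binding protein best known from the absorptive cells of the intestine, was at 8.97 ± 1.49 in hepatoblasts, 177 ± 30.1 in Diff. hepatocytes and 0.193 ± 0.084 CPM in the mature cells. It rose by 4.30 (SE 0.16) on the log2 scale in culture (edgeR adjusted p = 3.35e-10) and was called lower in mature hepatocytes than in hepatoblasts (edgeR adjusted p = 7.77e-10). Bco1, which cleaves beta-carotene to retinal, fell from 55.5 ± 13.1 CPM to 9.70 ± 2.63 CPM in mature hepatocytes (log2 -2.51, SE 0.21). Lrat, which esterifies retinol for storage and marks stellate cells, was at 2.12 ± 0.351, 1.09 ± 0.207 and 5.81 ± 2.30 CPM, and its call as higher in mature hepatocytes than in hepatoblasts was lost with library totals (log2 0.62). The stellate and mesenchymal list had 7 markers, including Lrat. Their sum was 860 to 1480 CPM in hepatoblasts, 578 to 1328 in Diff. hepatocytes and 60.4 to 92.6 CPM in the mature cells. The markers went both ways. In mature hepatocytes Lrat and Rgs5 were called higher than in hepatoblasts, and Col1a1, Des, Pdgfrb and Reln lower. In Diff. hepatocytes Col1a1 and Des were called higher, and Reln and Rgs5 lower. The part of stellate and mesenchymal cells in these values was not tested.

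All 6 nuclear receptors of retinoids were tested. Rxra, the partner of many nuclear receptors in liver, rose from 99.4 ± 13.5 CPM to 322 ± 20.3 CPM in Diff. hepatocytes (log2 1.69, SE 0.13) and 750 ± 110 CPM in mature hepatocytes (log2 2.92, SE 0.13). Rarb fell from 4.05 ± 0.999 CPM to 0.253 ± 0.123 CPM in culture (log2 -3.96, SE 0.40), and was at 2.12 ± 1.00 CPM in mature hepatocytes. Rxrg had 6.86 ± 1.17 CPM in mature hepatocytes and was called higher there than in hepatoblasts, with 0.122 ± 0.0842 CPM. The other members were not called against hepatoblasts in either group.

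Of the genes that move, deiodinate or sense thyroid hormone, 13 of 14 were tested. In Diff. hepatocytes 4 were called higher and 0 lower than in hepatoblasts, and in mature hepatocytes 8 higher and 3 lower, with medians of -0.03 and 1.79. These are 30.8% and 0% of the list in Diff. hepatocytes, against 14.9% and 14.0% of all tested genes. In mature hepatocytes they are 61.5% and 23.1%, against 20.1% and 24.7%, so the share called lower was near that of all genes. Dio1, the liver deiodinase that makes the active hormone from thyroxine, had 0.136 ± 0.0556 in hepatoblasts, 1.91 ± 1.15 in Diff. hepatocytes and 190 ± 44.1 CPM in the mature cells. It rose in both, by 3.78 (SE 0.53) and 10.40 (SE 0.45) on the log2 scale. Hepatoblasts held only 17 counts of Dio1 over all their libraries, so the size of both rises rests on few counts. Diff. hepatocytes were lower than mature hepatocytes by -6.62 (SE 0.34). Dio3, which inactivates the hormone, was at 1.07 ± 0.319, 1.71 ± 0.262 and 0.0301 ± 0.0348 CPM and was called lower in mature hepatocytes.

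The hormone transporters named here moved in both directions. Slco1b2 rose from 3.52 ± 1.5 CPM to 92.1 ± 4.33 in Diff. hepatocytes and 1330 ± 202 CPM in the mature cells, and Slc17a4 from 0.190 ± 0.0554 CPM to 2.06 ± 0.410 and 36.6 ± 10.7 CPM. Slc7a5 fell from 64.9 ± 24.3 CPM to 5.13 ± 1.24 CPM in mature hepatocytes (log2 -3.65, SE 0.26). The receptor Thrb rose from 19.8 ± 3.69 CPM to 68.6 ± 11.3 CPM in mature hepatocytes (log2 1.79, SE 0.17), a call lost with library totals, where it was 0.95. Thra, the other receptor, had log2 differences of -0.81 (SE 0.15) and -0.82 (SE 0.16) in Diff. and mature hepatocytes against hepatoblasts, which were called only with library totals (-1.14 and -1.69).

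Of 5 genes that thyroid hormone induces in liver, 4 were called higher in Diff. hepatocytes and the same 4 in mature hepatocytes, with list medians of 3.4 and 4.37. In each group these are 80.0% of the list, against 14.9% and 20.1% of all tested genes. Thrsp, which promotes lipogenesis, was at 0.205 ± 0.078 in hepatoblasts, 20.9 ± 3.21 in Diff. hepatocytes and 525 ± 246 CPM in the mature cells. Klf9, a transcription factor that glucocorticoids also induce, rose from 5.12 ± 1.68 CPM to 85.9 ± 7.02 and 197 ± 20.3 CPM, and Me1, malic enzyme, from 10.6 ± 2.52 CPM to 112 ± 7.33 and 219 ± 53.8 CPM. Gpd2, a mitochondrial glycerol phosphate dehydrogenase, rose from 13.5 ± 3.72 CPM to 29.6 ± 1.39 CPM (log2 1.13, SE 0.15) and 63.7 ± 6.22 CPM (log2 2.24, SE 0.16), and the first call was lost with library totals (0.79). In Diff. against mature hepatocytes 3 of the 5 (60.0%) were called lower, against 15.6% of all tested genes.

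Of the genes for metabolism and sensing of sex steroids and glucocorticoids, 23 of 27 were tested. In Diff. hepatocytes 7 were called higher and 4 lower than in hepatoblasts, and in mature hepatocytes 16 higher and 1 lower, with medians of 0.07 and 4.02. These are 30.4% and 17.4% of the list in Diff. hepatocytes, against 14.9% and 14.0% of all tested genes. In mature hepatocytes they are 69.6% and 4.35%, against 20.1% and 24.7%. Esr1, an estrogen receptor, had 0.806 ± 0.297 in hepatoblasts, 0.509 ± 0.204 in Diff. hepatocytes and 29.2 ± 9.86 CPM in the mature cells. It was called higher in mature hepatocytes than in hepatoblasts (edgeR adjusted p = 1.62e-08). Nr3c1, the glucocorticoid receptor, was at 57.3 ± 3.4, 63.1 ± 4.34 and 126 ± 8.02 CPM, and its call in mature hepatocytes against hepatoblasts (log2 1.13, SE 0.08) was lost with library totals (0.28).

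Among the enzymes, Hsd11b1, which regenerates active glucocorticoid, rose from 1.13 ± 0.542 in hepatoblasts to 7.21 ± 2.83 in Diff. hepatocytes and 596 ± 66.4 CPM in the mature cells. Hsd11b2, which inactivates it, fell from 2.94 ± 0.836 CPM to 0.373 ± 0.106 and 0.0948 ± 0.153 CPM. Akr1c6, a 17-beta hydroxysteroid dehydrogenase, took opposite directions, with 3.14 ± 0.747 in hepatoblasts, 0.308 ± 0.157 CPM in Diff. hepatocytes (log2 -3.35, SE 0.28) and 1098 ± 122 CPM in mature hepatocytes (log2 8.45, SE 0.23). Hsd3b5, which reduces steroids in the liver of male mice, had 370 ± 80.0 CPM in mature hepatocytes and under 1 CPM in both groups of embryonic origin, and Srd5a1, a steroid 5-alpha reductase, rose from 5.78 ± 0.906 CPM to 140 ± 6.99 CPM in mature hepatocytes.

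Other genes of the list were high in culture. Hsd17b13, a lipid droplet protein, rose from 6.47 ± 2.91 CPM to 788 ± 163 in Diff. hepatocytes and 474 ± 65.5 CPM in the mature cells. Its difference between Diff. and mature hepatocytes (log2 0.73, SE 0.27) was called only with library totals (1.27). Cyp17a1, which hydroxylates steroid precursors, rose from 0.439 ± 0.0474 CPM to 16.0 ± 2.60 in Diff. hepatocytes and 4.77 ± 1.65 CPM in the mature cells, and was higher in Diff. than in mature hepatocytes (log2 1.75, SE 0.21, edgeR adjusted p = 9.44e-06).

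**Figure D5:**
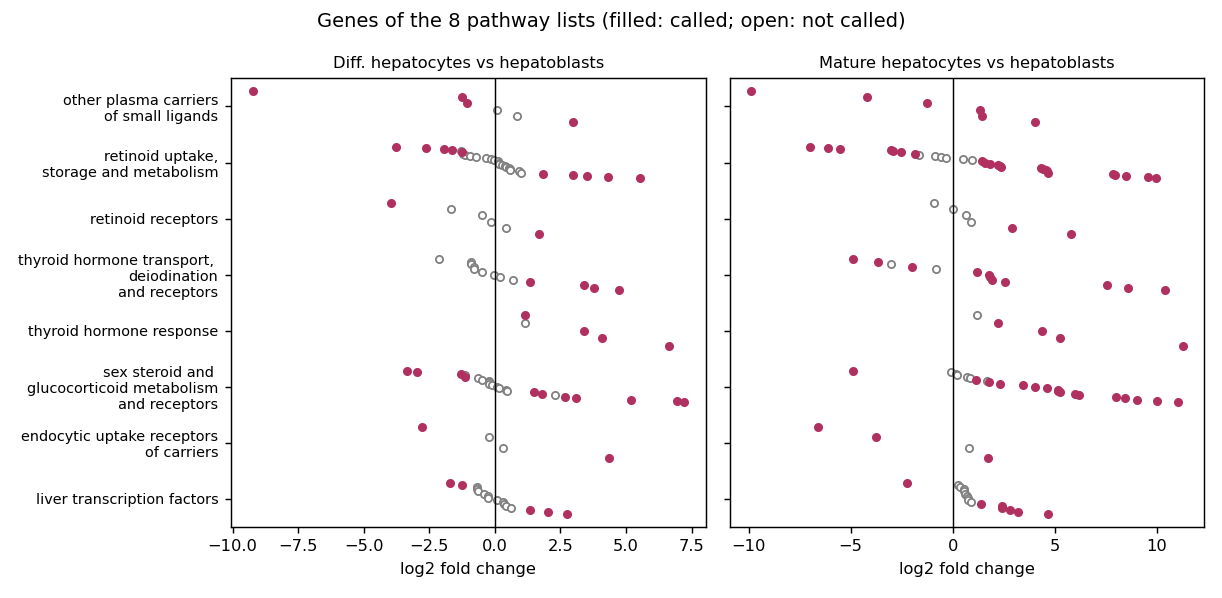
Log2 fold change against hepatoblasts of the tested genes of the 8 lists, in Diff. hepatocytes (left) and mature hepatocytes (right), 1 point per gene, sorted within a list, filled where the gene was called (edgeR adjusted p under 0.01 and absolute log2 fold change over 1) and open otherwise. The 2 panels have different horizontal scales. Of the 102 genes, 26 were called higher and 16 lower on the left, and 56 higher and 17 lower on the right.

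The endocytic receptors that take up carriers with their ligands were 4 genes. Lrp1 rose from 590 ± 92.7 CPM in hepatoblasts to 1930 ± 142 CPM in mature hepatocytes (log2 1.71, SE 0.12), a call lost with library totals (0.86). Lrp2, or megalin, which takes up retinol-binding protein in kidney, rose from 2.25 ± 0.293 CPM to 46.0 ± 33.2 CPM in Diff. hepatocytes (log2 4.35, SE 0.42) and was at 3.97 ± 0.792 CPM in mature hepatocytes. Diff. replicate 1 held 94.8 CPM of it against 20.5 to 37.3 CPM in the other 3, whose mean was 29.8 ± 8.54 CPM, and without that library the log2 fold change was 3.73 and still called. The 5 bile duct markers summed to 12.9 to 15.1 CPM in hepatoblasts, 69.9 to 213 in Diff. hepatocytes and 15.4 to 40.6 CPM in the mature cells. None was at 0. Krt7, Krt19 and Epcam were called higher in Diff. hepatocytes than in hepatoblasts, and Sox9 and Spp1 were not called. The paper states that Dlk1+ cells of E14.5 livers included some positive for the bile duct marker Sox9. The part of bile duct cells in the rise of Lrp2 was not tested. Its partner Cubn was at 5.13 ± 1.22, 4.44 ± 4.05 and 0.0461 ± 0.0308 CPM, with 10.5 CPM in Diff. replicate 1, the library with the highest bile duct marker sum, and at most 2.76 CPM in the other 3 of its group. Amn, which anchors Cubn, fell from 3.49 ± 0.655 CPM to 0.497 ± 0.350 and 0.252 ± 0.0491 CPM.

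The list of liver transcription factors held 16 genes, all tested. In Diff. hepatocytes 3 were called higher and 2 lower than in hepatoblasts, and in mature hepatocytes 6 higher and 1 lower, with medians of -0.08 and 0.75 against -0.01 and -0.15 over all tested genes. The shares in Diff. hepatocytes, 18.8% and 12.5%, were near the 14.9% and 14.0% of all genes, and those in mature hepatocytes were 37.5% and 6.25% against 20.1% and 24.7%. Hnf4a, a master regulator of hepatocyte genes, was at 409 ± 92, 618 ± 75.9 and 1087 ± 182 CPM and was called higher in mature hepatocytes (log2 1.41, SE 0.18), but not with library totals (0.56). Cebpa was at 150 ± 34.1, 113 ± 6.99 and 797 ± 175 CPM and rose in mature hepatocytes (log2 2.41, SE 0.18), with Diff. hepatocytes lower than mature ones by -2.82 (SE 0.18). Cebpb rose from 21.8 ± 2.72 CPM to 55.3 ± 1.39 in Diff. hepatocytes and 200 ± 25.9 CPM in the mature cells, and Ppara from 34.2 ± 7.93 CPM to 138 ± 19.0 and 241 ± 71.0 CPM. Nr2f1 fell from 1.69 ± 0.308 CPM to 0.504 ± 0.18 and 0.351 ± 0.0869 CPM.

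The 2 nearest protein-coding genes on either side of each member were followed to see which of them moved. Of all tested genes, 14.9% were called higher and 14.0% lower in Diff. hepatocytes than in hepatoblasts, and 20.1% and 24.7% in mature hepatocytes. In Diff. against mature hepatocytes the shares were 20.2% and 15.6%. With such shares, nothing about the places of the members is read from a called neighbour. Around Shbg, Atp1b2, a sodium pump subunit that lies 8862 bases away, fell from 26.6 ± 15.8 in hepatoblasts to 0.461 ± 0.112 CPM in Diff. hepatocytes (log2 -5.83, SE 0.41, edgeR adjusted p = 7.66e-08) and 0.143 ± 0.065 CPM in mature hepatocytes (log2 -7.49, SE 0.50, edgeR adjusted p = 1.58e-08). Sat2, 4119 bases away on the other side, fell from 14.8 ± 2.87 CPM to 3.12 ± 0.384 CPM in Diff. hepatocytes (log2 -2.25, SE 0.16) and was at 9.99 ± 0.253 CPM in mature hepatocytes. Of the next genes out, Trp53, a tumour suppressor 22931 bases away, was at 77.3 ± 11.5 in hepatoblasts, 56.5 ± 2.62 in Diff. hepatocytes and 19.8 ± 2.53 CPM in the mature cells. It was called lower in mature hepatocytes than in hepatoblasts (log2 -1.97, SE 0.12, edgeR adjusted p = 5.38e-09) and higher in Diff. than in mature hepatocytes (log2 1.51, SE 0.12), and Fxr2 was called in no comparison.

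Around Rbp4, Ffar4, a fatty acid receptor 2366 bases away, rose from a mean of 0.128 in hepatoblasts to 6.30 CPM in Diff. hepatocytes (log2 5.57, SE 0.34) and had 0.307 CPM in mature hepatocytes. Pde6c, 7500 bases away, was at 30.8 and 21.6 CPM in hepatoblasts and Diff. hepatocytes and fell to 0.354 CPM in mature hepatocytes (log2 -6.45, SE 0.37). The cell division gene Cep55 fell in both groups (log2 -2.56, SE 0.28, and -4.99, SE 0.35). Around Ttr, Dsg2 rose in mature hepatocytes (log2 1.51, SE 0.16), a call lost with library totals (0.67), and B4galt6 fell there (log2 -3.74, SE 0.23). Trappc8 near Ttr and Fra10ac1 near Rbp4 were called in no comparison, and Dsg3, with at most 4 counts in any library, was not tested. Around Serpina7, Nrk had means of 26.2, 22.1 and 0.082 CPM and was called lower in mature hepatocytes than in hepatoblasts (edgeR adjusted p = 8.75e-08), and the other 3 neighbours had at most 7 counts in any library and were not tested.

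Over the 12 libraries the levels of Serpina7 and Rbp4 moved together (Pearson's r = 0.87 of log2 CPM), those of Shbg ran against Serpina7 (r = -0.78) and Rbp4 (r = -0.84), and those of Ttr and Rbp4 had r = 0.03. These are descriptions over 12 points that fall into 3 groups. Among 8693 genes with a mean of at least 10 CPM, the genes whose log2 CPM followed a member most closely were Rad21 (r = 0.99), Nup133 and Ewsr1 for Shbg, 1700123O20Rik (r = 0.98), Tpp1 and Zyg11b for Serpina7, Trpc4ap (r = 0.99), Dmgdh and Dap for Ttr, and Endog (r = 0.98), Pgm1 and Ccdc58 for Rbp4. The measure reads the pattern and not its size. Rad21, for example, had 225 CPM in hepatoblasts, 68.2 in Diff. hepatocytes and 65.9 CPM in the mature cells, a far narrower range than that of Shbg, and Trpc4ap had 104, 87.6 and 161 CPM. With Spearman's rank correlation 1 of the 3 genes named for Rbp4 and 0 of those named for each of the other members stayed among the closest 3.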

How the data were processed

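The authors prepared strand-specific poly(A) libraries, sequenced 75-base single reads, and, per the labels and the paper's methods, used FastQC 0.11.2, STAR 2.5.2b, Picard 2.10.2 and the GRCm38 build. The authors deposited 1 table of unnormalized, unfiltered read counts whose columns all matched a library (0 left over). Which strand column of STAR was deposited is not given in the sources used here. Replicates are named by the labels as separate samples.

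The main test was the quasi-likelihood test of edgeR 4.0.16 (R 4.3.3, limma 3.58.1), and DESeq2 1.42.0 was an alternative. A gene was kept if any library had more than 10 counts of it, libraries were scaled by TMM, and 1 fit with group as its only term covered all 12 libraries. A call required a p under 0.01 after Benjamini-Hochberg adjustment over 17779 genes and more than 1 unit of log2 fold change in either direction, the thresholds of the paper's methods. The same steps were tested on simulated data. Log2 CPM used a prior count of 2, and RPKM the summed exon length of GENCODE M21, which held 53620 of the 53715 identifiers. Per the paper's methods the authors counted reads on genes of an Ensembl release. Exon lengths, overlaps and shared sequences were taken from GENCODE M21 and not from that release. Counting intervals are at 95% and cover counting error only.

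The members and gene lists were chosen with earlier results of these data known. Named genes are the members, list genes (called genes with the largest fold changes first), the 2 nearest protein-coding genes on each side, and the 3 genes most correlated with each member. RefSeq promoter sequences were matched for 3 members. Alternatives were other scalings, filters and tests, a replicate block and leaving out each library. Results for 3 list genes are not reported here.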

Additional observations from a re-analysis of the deposited data

Results flagged for a closer look

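In 18 of 204 groups of 4 libraries tested, Dixon's test at 95% set the highest or the lowest library apart. For independent values with a normal spread about 1 in 20, or 10.2, would be set apart. The groups here share libraries, and some values rest on counts near 0, so 18 is not read as an excess over chance. Of the carriers, Shbg in hepatoblast replicate 1 was low (57.2 CPM, others 92.8 to 98.9), Rbp4 was low in Diff. replicate 1 (3559 CPM, others 4540 to 4640) and high in mature replicate 4 (4376 CPM, others 3345 to 3470), and Shbg was high in mature replicate 4 (0.186 CPM, which is 3 counts against 1 in each of the others).

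Hepatoblast replicate 1 was also low for Bco1 (36.0 CPM) and Sat2 (10.5 CPM) and high for Thra (40.6 CPM). Diff. replicate 1 was high for Cep55 (3.37 CPM) and Cubn (10.5 CPM) and low for Tcn2 (63.0 CPM), replicate 2 high for Retsat (78.4 CPM), and replicate 3 had 0 CPM of Rxrg. Over all Diff. libraries Rxrg had only 3 counts. In mature hepatocytes, replicate 1 was at 0 CPM for Cubn, which is 0 counts against 1 in each of the others. That library was high for Nr2f1 (0.480 CPM) and low for Slc7a5 (3.29 CPM). Replicate 3 was high for Cyp26a1 (56.1 CPM) and Rarb (3.62 CPM), and replicate 4 low for Srd5a1 (130 CPM).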

How the results depend on the processing

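Genes called numbered 5145, 7971 and 6362 in the comparison of Diff. hepatocytes with hepatoblasts, of mature hepatocytes with hepatoblasts and of Diff. with mature hepatocytes. With the fold limit inside the test (glmTreat) they were 2966 and 4221 in the first and last, and with at least 10 counts asked of every library, which tests fewer genes and drops Shbg, 2634, 4379 and 3107. That filter left 25, 47 and 41 list genes called, from 42, 73 and 69. With library totals the members' log2 fold changes moved to 0.65 (Rbp4) in the first comparison, to -10.56 (Shbg), 0.74 (Serpina7), 1.17 (Ttr) and -0.13 (Rbp4, reversed) in the second, and to -2.37 (Ttr) and 0.78 (Rbp4) in the last, while Alb in the first turned to -0.22. Serpina7 was not called under glmTreat in the second and last comparisons. Same-numbered deviations correlated at 0.39, -0.07, 0.36 and 0.28 for replicates 1 to 4 in the first comparison, -0.06 to 0.12 in the second and -0.13 to 0.13 in the last, and 5, 4 and 2 of 8 libraries were closest to their own number. In the first, 3 of 4 pairs were thus over 0.1, short of the every pair asked for to call the libraries paired, and a partial link there cannot be told apart from a shared number. The replicate block gave 5220, 7988 and 6360 calls.

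Leaving out each library in turn gave 4704 to 5170, 7621 to 7967 and 6027 to 6532 genes called, and 38 to 45, 71 to 74 and 68 to 70 list genes. The log2 fold changes ran, in the first comparison, from -10.73 (without Diff. replicate 2) to -9.26 for Shbg, 3.05 to 3.28 for Serpina7, -0.99 to -0.75 for Ttr and 0.84 to 1.05 for Rbp4. In the second they ran from -10.30 to -9.58, 1.09 to 1.81, 1.89 to 2.15 and 0.59 to 0.79, and in the last from 1.36 to 2.08 for Serpina7, -2.95 to -2.84 for Ttr and 0.20 to 0.34 for Rbp4. Alb in the first ran from -0.021 (without hepatoblast replicate 1) to 0.212. The Rbp4 to Ttr ratio ran from 0.946 to 1.06 in hepatoblasts, 3.37 to 3.94 in Diff. hepatocytes and 0.398 to 0.425 in mature hepatocytes. Depth limits Shbg outside hepatoblasts, at 9 and 6 counts in all, so its fitted values rest on few counts. Some list genes were as near the floor in a group. Hepatoblasts held 17 counts of Dio1, 18 of Cyp26a1, 14 of Rdh16 and 15 of Rxrg in all, and mature hepatocytes 2 of Dio3.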
